A study of Homo sapiens with 8 samples.

Results

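Estrogen receptor (ER) sites that kept a peak after CDK12 knockdown were examined in LY2 cells, an established ER+ breast cancer line that resists endocrine therapy. ER was immunoprecipitated with its crosslinked DNA, which was then sequenced (ChIP-seq), from cells depleted of serum for 24 hours in 4-OHT-free media and transfected for 48 hours with a control siRNA (siCtrl) or an siRNA against CDK12 (siCDK12). All libraries came from cells given 1 µmol/L β-estradiol for 1 hour before crosslinking, so none shows ER binding without hormone. Peak lists of 4 ER libraries were used, siCtrl replicates 2 and 3 and siCDK12 replicates 3 and 4, with 12021, 4955, 4819 and 5224 peaks at a q-value under 0.05. Of these, 809, 468, 130 and 109 had a -log10 q-value of 5 or more, so the siCDK12 lists held fewer strong peaks throughout. The labels do not say whether replicates came from separate cultures, and CDK12 itself cannot be checked in ER peak lists.

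The members were chosen by presence of peaks alone. Peaks sharing 1 bp or more across the 4 libraries were joined, which left 25365 sites, of which 667 had a peak in both siCtrl libraries. Of these 667 sites, 212 (31.8%, 95% exact binomial interval 28.3 to 35.5) also had a peak in at least 1 siCDK12 library and are called persistent here. Peaks in both siCDK12 libraries marked 66 of the 212, and 146 had a peak in siCDK12 replicate 3 alone (85) or in replicate 4 alone (61). The other 455 sites had no siCDK12 peak and are called lost. Among sites found in exactly 1 siCtrl library, 553 of 15635 (3.54%) had a siCDK12 peak. These shares follow from the choice of members and carry no test. Leaving out siCtrl replicate 2 or 3 gave 393 or 583 persistent sites, and leaving out siCDK12 replicate 3 or 4 gave 127 or 150.

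ER is a nuclear receptor that binds DNA as a dimer, and its preferred sequence, the estrogen response element, is an inverted repeat of the half-site GGTCA with 3 bases between the repeats. In breast cancer cells ER works mostly from enhancers away from gene starts, often beside forkhead and AP-1 factors. CDK12 is a cyclin-dependent kinase that phosphorylates RNA polymerase II during elongation. The comparison asks at which ER sites a peak was still called once CDK12 was depleted, and how its height compared with siCtrl.

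Elements are shown for the persistent sites with the highest siCtrl ranks among those with a peak in all 4 libraries. Of the 12 strongest such sites, those of HSD17B2, PREX1, GADD45G, ASB13 and WDR45B held no element by the rule that follows. An element was searched within 100 bp of the siCtrl replicate 2 summit with at most 1 mismatch in the 10 fixed bases. Capitals mark the half-sites, coordinates are those of GRCh38 on the plus strand, and positions of a changed base are counted from 1 at the first capital, with the consensus base first.
TEX14, chr17:58639806-58639858, no mismatch: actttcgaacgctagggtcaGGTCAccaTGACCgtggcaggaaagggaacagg
ITPK1, chr14:93017542-93017594, T3G: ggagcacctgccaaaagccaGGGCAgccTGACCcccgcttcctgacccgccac
GREB1, chr2:11498709-11498761, T3G: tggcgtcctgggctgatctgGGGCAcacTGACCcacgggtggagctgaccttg
SPINK4, chr9:33221433-33221485, A11C: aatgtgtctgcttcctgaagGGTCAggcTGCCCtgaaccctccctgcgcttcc
IER3, chr6:30751731-30751783, G2C: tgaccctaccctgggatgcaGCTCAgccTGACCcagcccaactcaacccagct
CCDC201, chr7:45876578-45876630, A5T: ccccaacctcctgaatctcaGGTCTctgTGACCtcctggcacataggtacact
UMODL1, chr21:42060177-42060229, A11C: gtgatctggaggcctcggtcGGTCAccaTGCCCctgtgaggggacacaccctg

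Another 4 elements belong to the 8 strongest sites with a peak in only 1 siCDK12 library, for comparison with those above. Not all of the 8 are shown, and no element was found at SULF2, SPAG9 and PADI1.
PREX1, chr20:48572360-48572412, G1T: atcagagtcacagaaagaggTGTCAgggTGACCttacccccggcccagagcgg
IGFBP4, chr17:40448848-40448900, A11C: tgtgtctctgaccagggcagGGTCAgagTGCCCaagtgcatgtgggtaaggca
PEMT, chr17:17514530-17514582, A11C: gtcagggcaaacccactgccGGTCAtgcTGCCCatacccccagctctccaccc
CTAG2, chrX:154649773-154649825, T3G: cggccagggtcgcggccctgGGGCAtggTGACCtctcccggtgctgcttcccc

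Among these 11 elements, only that of TEX14 matched the consensus without a mismatch. An element was present at 16 of the 66 sites in both siCDK12 libraries (2 without a mismatch) and at 35 of the 146 sites in 1 library (6 without a mismatch). Its centre lay a median of 19 bp from the summit in each class. The farthest element lay at 36 bp in the sites in both siCDK12 libraries and at 94 bp in those in 1, the class with more elements.

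Peak height is given as fold enrichment, the deposited ratio of fragment pileup to local background at the summit. The 12 strongest sites with a peak in all 4 libraries, ranked by the mean percentile of -log10 q in the siCtrl libraries, all had siCDK12 folds below both siCtrl folds. The site in intron 2 of TEX14 (chr17:58639694-58639993), a gene for germ cell intercellular bridges, was the first peak of both siCtrl lists, the first of siCDK12 replicate 3 and the second of replicate 4. Its fold was 34.8 and 23.1 in the siCtrl libraries and 10.1 and 4.84 in the siCDK12 libraries. The pileup there was 260 and 314 fragments against 172 and 116. The peak thus kept its rank while its height was lower in both knockdown libraries. A lower height here cannot be told apart from weaker enrichment of the siCDK12 libraries as a whole.

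In intron 3 of ITPK1 (chr14:93017410-93017724), which encodes an inositol phosphate kinase, the folds were 27.8 and 28.7 in siCtrl and 8.13 and 10.8 in siCDK12. This peak ranked 2 in both siCtrl lists, and 3 and 1 in siCDK12 replicates 3 and 4. GREB1, an estrogen-induced ER coactivator, had the highest fold in siCtrl replicate 2 of all 212 sites. Its site (chr2:11498595-11498875), 16394 bp downstream of an annotated GREB1 start and outside the canonical transcript, had folds of 39.97 and 32.9 in siCtrl against 10.2 and 4.63. Its rank was 5 and 3 in siCtrl but 7 and 69 in siCDK12, so the siCDK12 libraries differed from each other there.

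HSD17B2 encodes an enzyme that oxidises estradiol to estrone, and the site in its intron 3 (chr16:82083971-82084300) had folds of 21.7 and 20.8 against 9.73 and 8.72. In siCDK12 its ranks were 6 and 9, and in siCtrl 6 and 4. A site 36955 bp upstream of PREX1 (chr20:48864816-48865093), a Rac exchange factor gene, had folds of 15.9 and 9.64 against 4.18 and 2.96. It lay in a stretch of high local background, 17.1 times the genome background in siCtrl replicate 2.

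The site next to SPINK4 (chr9:33221279-33221567), a gene for a peptidase inhibitor, had folds of 33.7 and 21.6 in siCtrl and 6.83 and 2.86 in siCDK12. Its siCDK12 pileups were equal, 24 fragments in each library, so the gap between its siCDK12 folds came from the local background by which they were divided. Near the immediate early gene IER3 (chr6:30751584-30751880) the folds were 35.6 and 14.3 against 7.35 and 5.49. This site shows how far the siCtrl libraries themselves could lie apart.

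GADD45G, a stress-response gene, was nearest to a site 186083 bp away (chr9:89791013-89791333) with folds of 31.9 and 27.6 against 4.29 and 7.36. ASB13, a gene for a ubiquitin ligase adaptor, held a site in intron 1 (chr10:5660242-5660591) with folds of 19.3 and 27.0 against 8.23 and 7.20. CCDC201 (chr7:45876395-45876710) had 22.7 and 20.7 against 11.8 and 7.58. At UMODL1 (chr21:42060006-42060358) the folds were 21.2 and 14.0 against 9.17 and 3.68, with the groups apart at all 4 of these sites.

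The site near WDR45B (chr17:82614002-82614489), an autophagy gene, kept the largest share of its siCtrl height among the 12. Its folds were 34.4 and 21.2 in siCtrl and 18.1 and 13.6 in siCDK12, a ratio of the siCDK12 to the siCtrl mean of 0.57. The lowest ratio among the 12 was 0.176, at SPINK4.

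**Figure D1:**
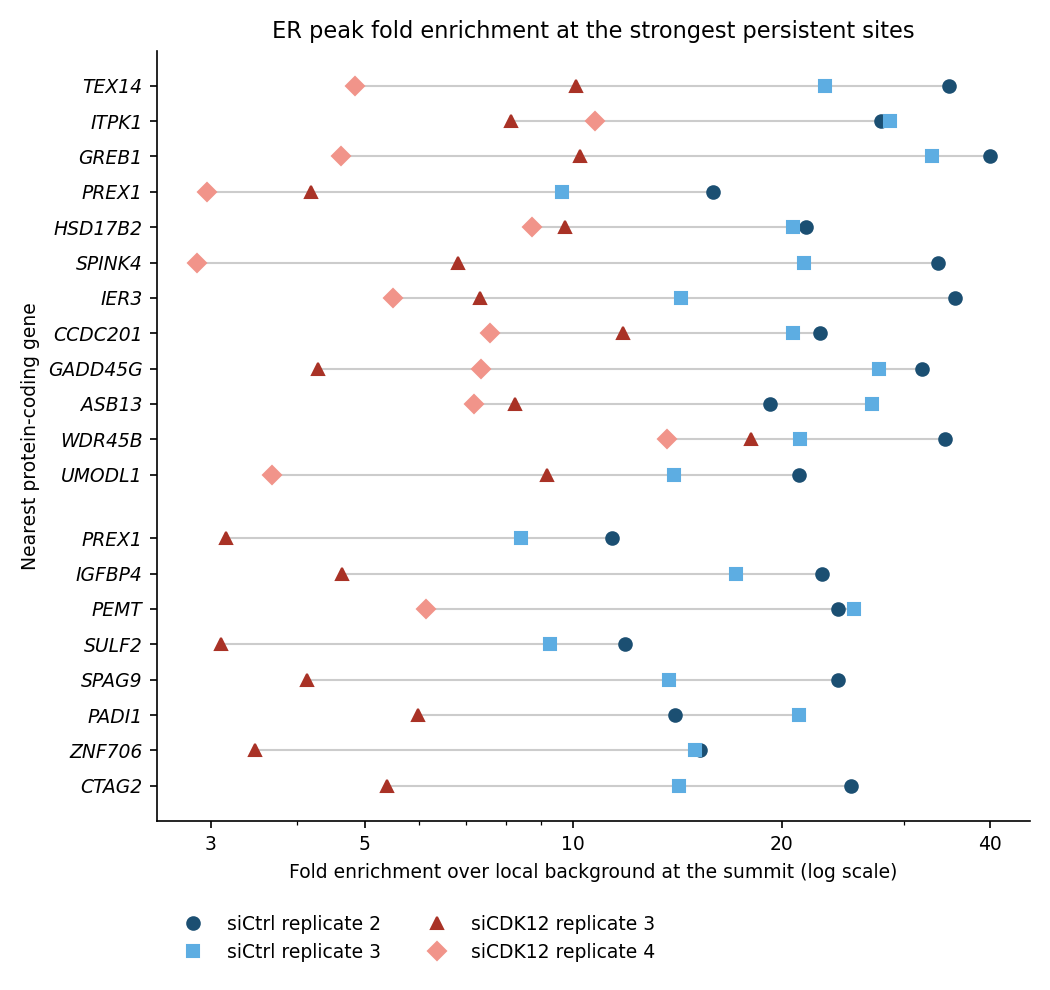
Fold enrichment (x axis, log scale) in each of the 4 libraries at the 12 strongest persistent sites with peaks in both siCDK12 libraries (upper block) and the 8 strongest with a peak in 1 (lower block), by nearest gene. Blue symbols are siCtrl and red symbols siCDK12, and at every site shown the siCDK12 symbols lie to the left of both siCtrl symbols, from 34.8 and 23.1 down to 10.1 and 4.84 at TEX14.

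The 8 strongest sites with a peak in only 1 siCDK12 library had siCtrl folds of the same order. IGFBP4, which encodes an insulin-like growth factor binding protein, had a site in intron 1 (chr17:40448704-40448997) with folds of 22.8 and 17.2 in siCtrl and 4.63 in siCDK12 replicate 3. In intron 3 of PEMT (chr17:17514402-17514753), a gene of phosphatidylcholine synthesis, the folds were 24.1 and 25.4 in siCtrl and 6.12 in siCDK12 replicate 4. PEMT was the only 1 of the 8 whose siCDK12 peak came from replicate 4.

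A second PREX1 site (chr20:48572257-48572509) had folds of 11.4 and 8.41 in siCtrl and 3.16 in siCDK12 replicate 3. The site nearest to SULF2 (chr20:48158059-48158301), a heparan sulfate sulfatase gene, had 11.9 and 9.27 against 3.10. Both lay on chromosome 20 in high local background, 16.2 and 15.7 times that of the genome at PREX1 and 8.99 and 8.75 times at SULF2 in the siCtrl libraries. SPAG9, a gene for a JNK scaffold, was nearest to a site (chr17:50944366-50944802) with folds of 24.1 and 13.7 against 4.13. PADI1, a peptidylarginine deiminase gene, held a site in intron 12 (chr1:17237427-17237720) with folds of 14.0 and 21.2 against 5.98.

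At the cancer-testis gene CTAG2 (chrX:154649673-154649974) the folds were 25.2 and 14.2 against 5.39, and near ZNF706 (chr8:101120732-101121014) 15.2 and 15.0 against 3.48. The ratio of the siCDK12 fold to the siCtrl mean was between 0.218 and 0.339 at the 8 sites. This ratio rests on the siCDK12 library in which a peak was called and says nothing of the other.

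Persistence went with the strength of the peak in siCtrl. When the 667 sites were ranked by the mean siCtrl percentile of -log10 q, 47 of the first 50 (94%, exact interval 83.5 to 98.7) were persistent and 32 of them had a peak in both siCDK12 libraries. Of the next 50, 26 (52%) were persistent, and of the 100 after those, 25 (25%). The share then stayed level, at 25% of the following 100 and 24.3% of the remaining 367. The 3 lost sites among the first 50, named here after their values were seen, were nearest to PFDN4, RPS6KL1 and PPP2R2C, and each held an element. Their siCtrl folds were 7.97 and 6.12, 13.5 and 14.5, and 15 and 13.

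All of the 10 strongest peaks of each library lay at persistent sites. Of the 100 strongest peaks, 70 and 74 did so in the siCtrl libraries, and 55 and 41 in the siCDK12 libraries. These counts are a description, since strength in siCtrl and presence in both siCtrl lists come from the same libraries.

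**Figure D2:**
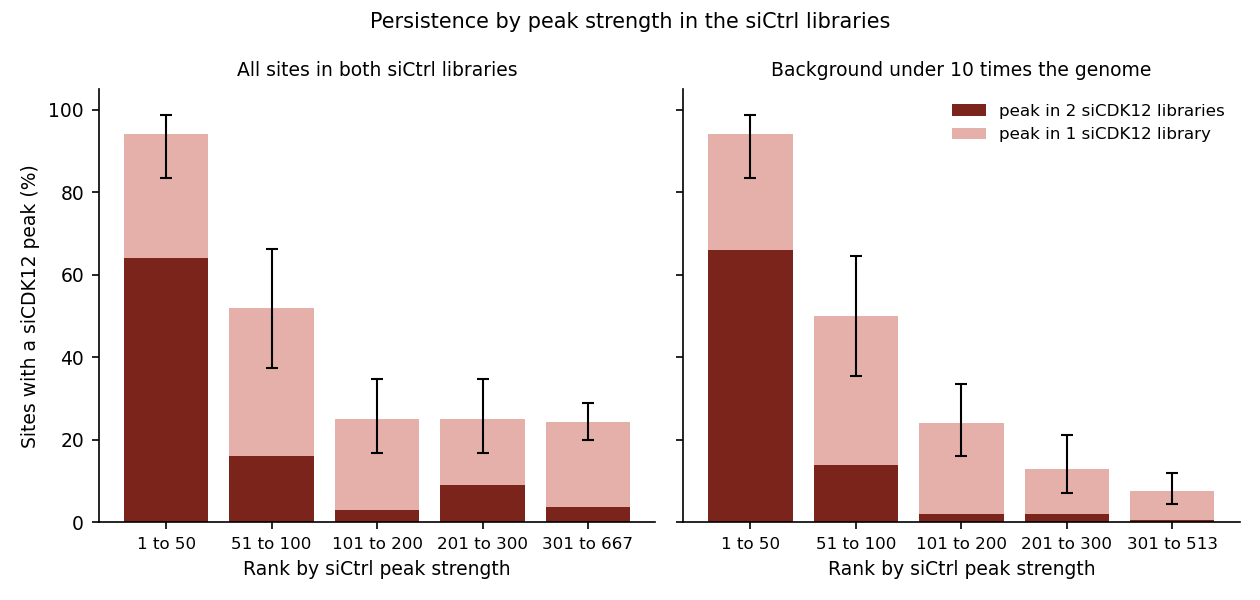
Share of sites with a siCDK12 peak (y axis, %) by rank of siCtrl peak strength (x axis), for all 667 sites (left) and for the 513 sites with a local background under 10 times the genome background (right). Dark bars are sites with peaks in both siCDK12 libraries, light bars those with a peak in 1, and error bars are exact 95% intervals of their sum. The share is 94% for the first 50 sites in both panels and reaches 24.3% on the left and 7.51% on the right for the last group.

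The persistent sites differed in the local background on which their peaks stood. The local background in fragments at each summit, solved from fold and p-value, was divided by the genome background of its library. That was taken as the lowest local background shared by at least 50 peaks of the library. It was 10 times the genome background or more in both siCtrl libraries at 154 of the 667 sites, a split chosen after the values were seen. Of these 154 sites, 87 were persistent (56.5%, exact interval 48.3 to 64.5), against 125 of the 513 other sites (24.4%, 20.7 to 28.3). In those 513 at least 1 siCtrl library was below 10 times, and they are called sites under 10 times. Both shares follow from the choice of members and carry no test. Neighbouring sites are not independent, so the intervals do not compare the groups. Among the 513, persistence continued to be lower with lower siCtrl strength, at 24% of the third group of ranks, 13% of the fourth and 7.51% of the last 213 sites.

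Of the 87 high-background sites, 83 lay on chromosomes 17 and 20. Of these, 39 formed a run over chr17:60245304-62136589, 10 a run over chr20:47195110-50814058 and 33 a run over chr20:53566534-57241739, and 1 stood alone on chromosome 17. The median siCtrl background in these runs was 23.7, 20.4 and 23.2 times that of the genome. Where siCDK12 had a peak at the 87 sites, the median background was 25.4 and 25.3 times that of the genome in its libraries, against 23.4 and 22.5 in siCtrl. Segments of 17q23 and 20q13 are known to be amplified in MCF-7-derived and other breast cancer cells. Copy number was not measured here, and its part in these peaks was not tested.

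The 66 sites with folds in all 4 libraries allow the closest comparison of height. Both siCDK12 folds were below both siCtrl folds at 51 of the 66 (77.3%), both were above at 3 (4.55%), and the groups overlapped at 12. The median ratio of the mean siCDK12 fold to the mean siCtrl fold was 0.448, with a range of 0.176 to 1.30. Over the 4 pairs of a siCtrl and a siCDK12 library this median was between 0.397 and 0.534, and it was 0.743 or 0.757 without siCtrl replicate 2 or 3 and 0.652 or 0.625 without siCDK12 replicate 3 or 4, when more sites qualify. An exact two-sided permutation test of 2 against 2 libraries cannot give a p below 0.333 for any site, and the folds belong to the contrast that chose the sites, so no test was made. Lower folds at these sites cannot be told apart from weaker enrichment of the whole siCDK12 libraries.

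The median hides the difference between the 2 background groups. At the 45 sites with a siCtrl background under 10 times that of the genome, the median ratio was 0.335 and the groups were apart, siCDK12 lower, at 42. Median folds were 19.4 and 14.0 in siCtrl and 6.53 and 5.39 in siCDK12. Restricted to the 20 sites whose background was at most 3 times that of the genome in both siCtrl libraries, the ratio was 0.313 and 19 of the 20 had both siCDK12 folds lower. The pileups, which do not involve the division by background, gave a median ratio of 0.355 at the 45 sites. Both siCDK12 folds stayed at 5 or more at 21 of the 45.

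At the 21 sites with a background of 10 times or more the median ratio was 0.946. Both siCDK12 folds were lower at 9, both higher at 3, and the groups overlapped at 9. Apart from the PREX1 site, the other 20 had siCtrl folds of at most 3.54 and 2.96, and ratios of 0.69 to 1.30. Their pileup ratios had a median of 1.06 with PREX1 included. Hence, of the sites with a peak in all 4 libraries, those outside these stretches were lower in siCDK12 with few exceptions. Most of those inside were near equal in all 4 libraries. A ratio exists only where siCDK12 peaks were called. At the 20 sites inside other than PREX1, siCtrl folds were already low, so a large drop could hardly show at them. The PREX1 site, with higher siCtrl folds, had both siCDK12 folds lower. Another 67 sites of this background were lost, among them the strong PFDN4 site (chr20:54195365-54195630), with siCtrl folds of 7.97 and 6.12.

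**Figure D3:**
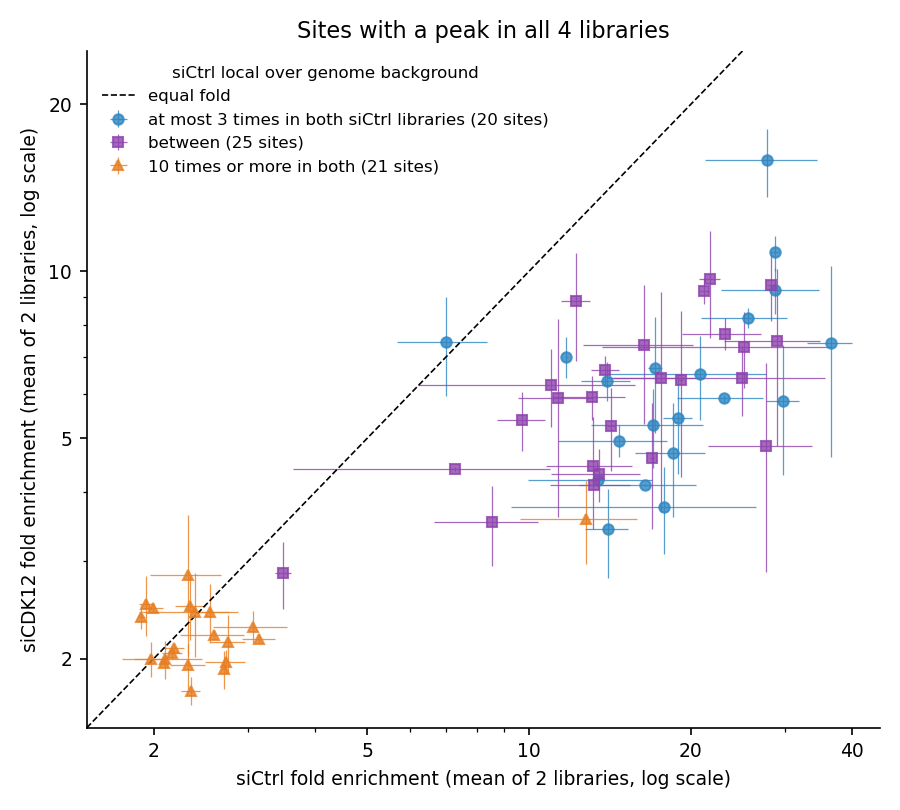
Mean fold enrichment in siCDK12 (y axis) against siCtrl (x axis), both on log scales, for the 66 sites with a peak in all 4 libraries. Bars run from the lower to the higher library of each condition, colours give the siCtrl local background relative to the genome and the dashed line marks equal folds. Orange sites (background of 10 times or more, median ratio 0.946) crowd around the line near a fold of 2 apart from PREX1, and the blue and purple sites lie below it apart from ANO2.

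Of the 45 sites only 1 had a ratio above 1, in intron 3 of ANO2 (chr12:5919249-5919677), a gene for a calcium-activated chloride channel. Its folds were 5.67 and 8.35 in siCtrl and 8.97 and 5.95 in siCDK12, and its pileups 15 and 17 against 19 and 12 fragments. It had an element, and its 2 conditions overlapped, as they did at sites near CYP2A7 (15.7 and 6.22 against 7.25 and 5.23) and in YPEL1 (10.9 and 3.64 against 4.44 and 4.36). In the first intron of WWC1 (chr5:168316379-168316685), a Hippo pathway gene, siCDK12 replicate 4 came close to siCtrl, with folds of 11.5 and 12.98 against 6.88 and 10.8. These 4 sites are named after their values were seen.

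The 4 summits of a site lay within 50 bp of each other at 35 of the 45 sites of lower background and at 8 of the 21 others. The median distance between the outermost summits was 30 and 69 bp in these groups. At the sites of lower background the peaks of the 2 conditions therefore stood at nearly the same bases more often than not. This was not so in the high-background stretches.

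The 146 sites with 1 siCDK12 peak showed the same division. In 80 of them the background was under 10 times that of the genome, and the siCDK12 fold was below both siCtrl folds at 66 and above both at 2. The median ratio of the siCDK12 fold to the siCtrl mean was 0.50. In the 66 high-background sites of this class the siCDK12 fold was below both at 28 and above both at 21, with a median ratio of 0.929. The ratio uses only the library in which a peak was called. The other siCDK12 library listed a peak with a q-value above 0.05 at only 9 of the 146 sites.

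**Figure D4:**
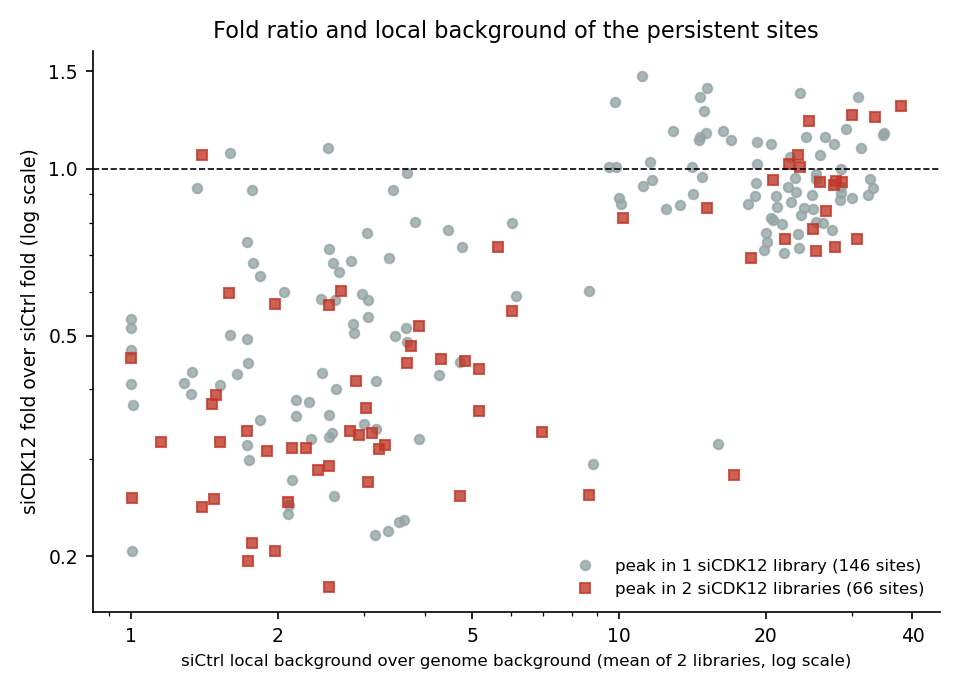
Ratio of siCDK12 fold to siCtrl fold (y axis, log scale) against siCtrl local background relative to the genome (x axis, log scale, mean of 2 libraries) for all 212 persistent sites. Squares have a peak in 2 siCDK12 libraries and circles in 1, and the dashed line marks equal folds. To the right of 10 most sites lie near the line, and to the left most lie below it, with a median ratio of 0.335 for the squares under 10 times.

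Lost sites with a background under 10 times that of the genome had median siCtrl folds of 6.43 and 5.17. For the persistent sites in 1 siCDK12 library these medians were 10.6 and 8.26, and for those in both 19.4 and 14.0. The order of the classes was thus the order of siCtrl height, which is set beside the class as a value and not as a test. The lowest siCDK12 folds called in the persistent sites with a background of at most 3 times were 2.80 in replicate 3 and 3.33 in replicate 4. Of the 455 lost sites, 14 had a siCDK12 peak in the deposited lists with a q-value above 0.05.

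Canonical estrogen targets were present among both the persistent and the lost sites. From a list of 52 estrogen response genes, 8 had a persistent site in the gene or within 10 kb, and 9 had lost sites only. By the same rule 0.585% of 20007 protein-coding genes had a persistent site and 1.24% had lost sites only. The list, written with earlier results of these data known, held 9 persistent and 15 lost sites, beside 212 and 455 of all sites in both siCtrl libraries. Genes with lost sites only were NRIP1, FKBP4, ABCA3, RARA, SERPINA1, PDZK1, SIAH2, THSD4 and TIAM1. GREB1 and CBFA2T3 had sites of both classes. The lost sites of GREB1 were chr2:11531002-11531230 and, in its intron 1, chr2:11539590-11539825. Besides GREB1, ASB13 and IGFBP4 the genes with a persistent site included TFF1, the secreted trefoil protein pS2. The TFF1 site (chr21:42376356-42376640) lay in intron 11 of the neighbouring gene TMPRSS3 and had folds of 20.2 and 12.6 in siCtrl and 5.30 and 9.43 in siCDK12. It held no element by the rule used here. Its rank was 17 and 21 in siCtrl, 41 in siCDK12 replicate 3 and 4 in replicate 4, in lists of different length. Only by this rank did the siCDK12 libraries lie on either side of siCtrl, since both siCDK12 folds were below both siCtrl folds.

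The other estrogen response genes had a peak in only 1 siCDK12 library. TSKU, a gene for a secreted leucine-rich protein, had a site 9502 bp upstream (chr11:76772621-76772952) with folds of 8.97 and 16.1 in siCtrl and 5.33 in siCDK12 replicate 4. HSPB8, a small heat shock protein gene, had a site 153 bp upstream of its start (chr12:119171240-119171529) with 9.74 and 13.5 against 3.77 in replicate 3. Both sites held an element.

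NHERF1, a gene for a PDZ scaffold protein, had 2 persistent sites. The site in intron 1 (chr17:74760707-74760983) had folds of 8.35 and 10.6 against 7.36 in siCDK12 replicate 3, and the site at chr17:74769806-74770122 had 14.2 and 15.6 against 3.83 in the same library. The stronger site in siCtrl was thus the weaker in siCDK12. CBFA2T3, a corepressor gene, had a site in intron 1 (chr16:88975028-88975308) with 5.96 and 5.59 against 4.62 in siCDK12 replicate 4. In the same intron its sites at chr16:88927122-88927398 and chr16:88928479-88928720 were lost. None of the 8 genes had a site in a stretch of 10 times the genome background.

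Luminal transcription factors and ER cofactors gave a persistent site at 1 of 26 genes, and 21 cell cycle and survival genes gave none, beside the 0.585% of all protein-coding genes. The cofactor gene was NCOA3, an ER coactivator on chromosome 20, with 3 sites. In exon 11 (chr20:47635376-47635670) the folds were 2.28 and 2.09 in siCtrl and 2.07 and 2.11 in siCDK12. In intron 2 (chr20:47610247-47610492) they were 2.11 and 1.84 against 2.15 and 1.85. All 3 sites lay in the high-background stretch and none held an element.

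Of 20 genes of recurrent breast cancer amplifications, 12 had a persistent site and 2 had lost sites only, beside 0.585% and 1.24% of all protein-coding genes. They held 43 persistent and 33 lost sites. BRIP1, a helicase gene of the Fanconi pathway whose product binds BRCA1, alone had 19 persistent sites, 8 of them with peaks in both siCDK12 libraries. Another 8 sites of the gene were lost. The background was 10 times that of the genome or more at all 19 persistent sites. Of the 8 with 4 folds, both siCDK12 folds were below both siCtrl folds at 3, above them at 2 and overlapping at 3. At chr17:61757712-61757978 in intron 14 they were lower, 2.13 and 2.21 against 3.37 and 2.93, as they were at chr17:61743690-61744047 in intron 15 (1.77 and 2.07 against 2.74 and 2.66) and chr17:61834639-61835032 in intron 6 (1.85 and 1.65 against 2.25 and 2.44). In intron 17 (chr17:61714828-61715178) the groups overlapped, with folds of 2.19 and 2.49 in siCtrl and 2.16 and 2.82 in siCDK12. At chr17:61745357-61745699 in intron 14 the siCDK12 folds of 2.82 and 2.20 were both above the siCtrl folds of 1.87 and 2.00. The same held at chr17:61752973-61753272 in that intron, with 2.27 and 2.49 against 1.87 and 1.93.

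ZNF217, an oncogenic zinc finger gene of 20q13, and BCAS1 each had 3 persistent sites, BCAS3 and DOK5 had 4 each, and USP32 had 2. EYA2, PFDN4, BCAS4, the phosphatase gene PPM1D and PTPN1 each had 1. PTPN1 was the exception in height, with folds of 12.2 and 5.79 in siCtrl and 4.39 in siCDK12 replicate 4 at its intron 3 (chr20:50566435-50566673), which also held an element. The other persistent sites of these 12 genes, BRIP1 and NCOA3 included, had siCtrl folds between 1.79 and 3.68. The list was written with earlier results of these data known and does not bear on whether the genes were bound by ER.

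Sequence was not used to choose the sites and could be tested. An element was present at 24.2% of the sites in both siCDK12 libraries and 24.0% of those in 1 (Fisher's exact test, two-sided, odds ratio 1.01, Benjamini-Hochberg adjusted p = 1 over 12 tests). Persistent and lost sites had an element at 24.1% and 27.3% (odds ratio 0.846, exact test, adjusted p = 0.595). All merged sites, most of which were found in a single library, had one at 1.91%. The test treats sites as units, and neighbouring sites are not independent.

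The share with an element turned on the background. It was 39.2% (49 of 125) at persistent sites under 10 times the genome background and 2.30% (2 of 87, exact interval 0.28 to 8.06) at those of 10 times or more, near the 1.91% of all merged sites. Lost sites under 10 times had an element at 31.7% (123 of 388). Within that group persistent and lost sites differed with an odds ratio of 1.39, in the opposite direction to the whole, and an exact test's adjusted p of 0.53. Without siCtrl replicate 2 or 3, when sites needed only the other siCtrl library, the odds ratio was 4.05 or 3.95 and the exact test's adjusted p 2.31e-13 or 2e-14. Without siCtrl replicate 3, sites in 2 siCDK12 libraries also exceeded those in 1 (odds ratio 2.17, exact test, adjusted p = 0.04).

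**Figure D5:**
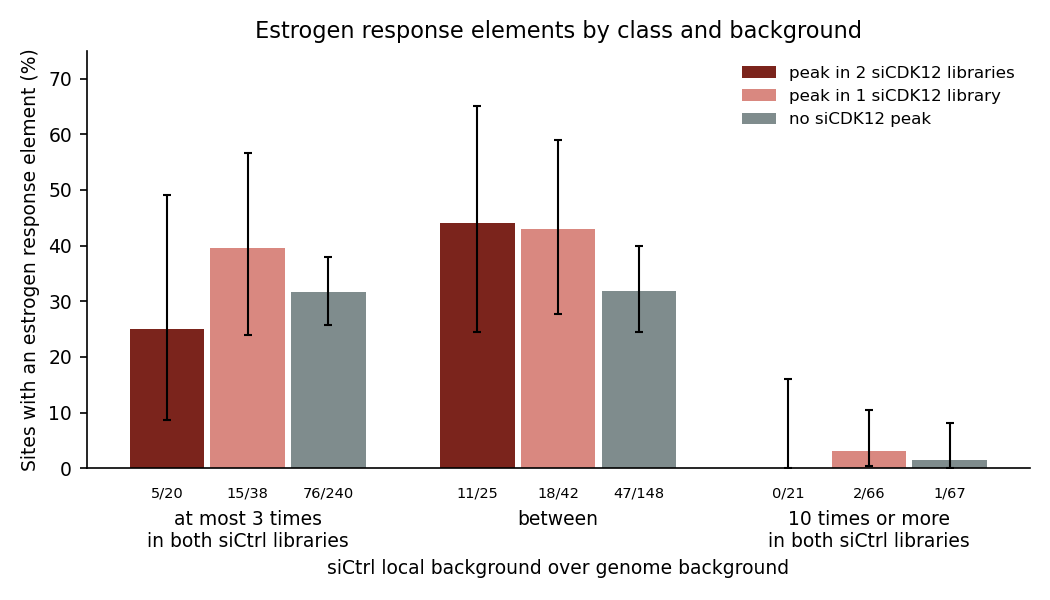
Share of sites with an estrogen response element (y axis, %) for sites with a peak in 2, 1 or no siCDK12 library (colours), split by siCtrl local background relative to the genome (x axis). Bars are shares with exact 95% intervals and the counts stand below them. The 3 classes overlap within each background group, and in the group of 10 times or more the shares are 0 of 21, 2 of 66 and 1 of 67 sites.

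The single half-site GGTCA, searched on both strands, was found at 77.3% of sites in both siCDK12 libraries, 58.9% of those in 1 and 75.4% of lost sites. The first difference gave 2.37 as odds ratio (exact test, adjusted p = 0.0763), and persistent against lost sites gave 0.596 (adjusted p = 0.0646), so neither passed 0.05. Under 10 times the genome background the half-site was present at 95.6% of sites in both siCDK12 libraries, 86.2% of those in 1 and 81.7% of lost sites. There the persistent against lost odds ratio was 1.93 (exact test, adjusted p = 0.454), again in the opposite direction to the whole. Without siCtrl replicate 2 or 3 it was 1.51 or 1.53 (exact test, adjusted p = 0.000573 or 4.45e-06), with lost sites again called in 1 library only. In the same settings 2 against 1 libraries gave 1.98 or 2.33 (exact test, adjusted p = 0.0311 or 0.000593). In the direction of the whole, the exact test for persistent against lost sites passed with equal peak numbers (0.491, adjusted p = 0.00758), with peaks outside chromosomes 1 to 22, X and Y included (0.579, 0.0308) and with summits extended by 100 bp each way and merged in place of peaks (0.585, 0.0448). The latter setting also passed for 2 against 1 libraries (2.46, 0.0479).

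Motifs of partner factors were rare. The AP-1 motif TGANTCA was present at 2 of 66, 11 of 146 and 40 of 455 sites of the 3 classes, and the forkhead motif TGTTTAC at 0, 4 and 6. The AP-2 motif GCCNNNGGC was present at 9, 10 and 49 sites. All merged sites had these motifs at 6.49%, 1.84% and 6.13%. None of the 6 tests on them passed 0.05, with adjusted p from 0.494 to 0.8. Both strands were searched for each.

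Most persistent sites were away from gene starts, as the lost sites were. A summit within 1 kb of the start of a protein-coding transcript was found at 5 of 66, 17 of 146 and 38 of 455 sites (7.58%, 11.6% and 8.35%). Odds ratios were 0.622 for 2 against 1 siCDK12 libraries and 1.27 for persistent against lost sites (Fisher's exact test, adjusted p = 0.626 and 0.595). Without siCtrl replicate 3 the latter was 2.04 (exact test, adjusted p = 0.000593), with lost sites called in 1 library only. By canonical transcripts 117 of the 212 persistent sites were intergenic, 86 intronic and 9 exonic. The median distance to a start was 19.2 kb for sites in both siCDK12 libraries, 20.1 kb for those in 1 and 24.7 kb for lost sites. Median GC content of the windows was 55.5%, 53.0% and 52.7%.

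The sites nearest the threshold were of both kinds of background. The members just inside it in both siCDK12 libraries had a lowest -log10 q of 1.31 at BRIP1, 1.32 at ADAMTSL5 and 1.35 at MACROH2A1, against a limit of 1.30. Those just inside with 1 siCDK12 peak were near TPM1, TBCD and BCAS4, each at 1.35. Just outside were sites near BRIP1, EFNA5 and NACA2, whose second siCDK12 peak had 1.13, 1.08 and 1.04. Among lost sites the highest siCDK12 values were 1.30 at BRIP1, 1.27 at DOK5 and 1.27 at BCAS1.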

How the data were processed

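Peak lists of ER ChIP-seq from LY2 cells covered 2 siCtrl and 2 siCDK12 libraries. Per the labels and methods, the authors aligned reads to GRCh38 with BWA and called peaks per library with MACS2; a divergent replicate per condition was excluded by them. The deposited fold is the ratio of pileup to local background, and significance was deposited as -log10 p-value and -log10 q-value. The score column, as the authors deposited it, is a whole-number form of the -log10 p-value and was not used. None is normalized between libraries, and read depth is not given. The genome background was 1.01 and 1.16 fragments in the siCtrl and 1.23 and 1.18 in the siCDK12 libraries. Divided by the smallest peak width of each library it was 7.19 to 7.59 fragments per kb, which does not replace read depth. Between 20.4% and 28.0% of listed peaks had a q-value above 0.05 and were left out. Input libraries were not analysed here.

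Pileup and background were solved from fold and p-value (whole pileups, within 0.001 of the -log10 p-value, for at least 99.99% of peaks). Genes and starts were those of GENCODE 44, and every peak fitted the reference. Members, lists and tests were chosen with earlier results of these data known. Named sites were the 12 and 8 strongest by siCtrl percentile, members at listed genes, and sites beside the threshold; others are said to be chosen after their values were seen. Shares of sites with a feature were set against each other with Fisher's exact test (two-sided), adjusted over 12 tests. Intervals are exact and cover counting error only. Functions were tested on simulated data. The planned repeat share was not run, since repeats are not marked in the reference used. Alternatives were other thresholds, overlaps, peak numbers, element and promoter settings and each library left out. The work used scipy 1.17.1, pysam 0.24.0, pandas 2.3.3, numpy 2.4.6 and matplotlib 3.10.9 under Python 3.11.15.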

Additional observations from a re-analysis of the deposited data

How the results depend on the processing

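Persistent sites numbered 110 when the -log10 q had to reach 3, 60 with a fold of at least 5 and 107 without chromosomes 17 and 20, against 212, and 127 to 583 with a library left out. Sites in both siCDK12 libraries numbered 35, 21 and 42 in the same settings, against 66, and 89 to 103 with a siCtrl library left out; without a siCDK12 library this class and its tests had no value. The median fold ratio was 0.376 with -log10 q reaching 3, 0.584 with the peaks as deposited, 0.358 as a ratio of medians, 0.334 without chromosomes 17 and 20, and 0.625 to 0.757 with a library left out. It was 0.335 under 10 times the genome background, 0.946 at 10 times or more and 0.313 at no more than 3 times. The split at 10 times and the chromosome setting were chosen after seeing the data. Each of these medians stayed under 1.

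The odds ratio of the element for 2 against 1 siCDK12 libraries, 1.01, was 0.8 with -log10 q reaching 3, 0.38 with a fold of at least 5, 0.869 with the peaks as deposited, 0.965 with equal peak numbers, 0.729 with no mismatch, 0.611 among the stronger sites, 0.511, 0.786 and 0.6 in the background groups (at most 3 times, under 10 times, 10 times or more) and 0.833 without chromosomes 17 and 20, and 1.65 to 2.17 with a library left out. For persistent against lost sites, 0.846, it was 1.05 with a fold of at least 5, 1.14, 1.39 and 1.55 in the background groups, 1.42 without chromosomes 17 and 20, and 0.799 to 4.05 with a library left out. Promoter position for 2 against 1 libraries, 0.622, was 1.26 with a fold of at least 5 and 1.01 at 2.5 kb, 0.417 at most 3 times, 0.26 at 10 times or more, and 0.802 to 1.26 with a library left out. For persistent against lost sites, 1.27, it was 0.614 with -log10 q reaching 3, 0.653 with a fold of at least 5, 2.06 at most 3 times, 9 at 10 times or more, and 1.07 to 2.04 with a library left out. At 10 times or more, the 0.6, 0.26 and 9 rest on classes without such a site (0 of 21, 0 of 21 and 0 of 67). A constant was added to each count there, so they are not measured effects.

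The half-site for persistent against lost sites was 2.51 at most 3 times, 1.93 under 10 times, 2.07 without chromosomes 17 and 20 and 0.77 to 1.53 with a library left out, and passed 0.05 in 5 of 14 alternatives, 3 below 1 (0.491, 0.579 and 0.585) and 2 above (1.51 and 1.53, without a siCtrl library). For 2 against 1 libraries it was 0.771 at most 3 times and passed in 3 of 12. Other reversals were AP-1 at 1.69, 1.18 and 1.2 in those 3 settings and 0.52 to 1.14 with a library left out, forkhead at 0.732 with a fold of at least 5 and 0.377 to 1.84, and AP-2 at 0.794 to 1.38. For 2 against 1 libraries AP-1 and forkhead were 1.02 at 10 times or more, each from 0 of 21 and 1 of 66 sites with a constant added to each count. Forkhead was 0.353 to 1.14 with a library left out. The cause of these changes was not tested. No paired analysis was possible because the ER libraries of the conditions share only replicate number 3 and the results come from presence of peaks.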
